A study of Mus musculus with 65 samples.

Results

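The genes described here are the mouse histone genes of the canonical H1, H2A, H2B, H3 and H4 families together with H3f3b, one of the genes for the replacement variant H3.3. They were chosen by symbol: every row whose current RefSeq symbol begins with H1f, H2ac, H2bc, H3c or H4c followed by a number, plus H3f3b. The rule found 57 of the 18036 genes in the table, namely 8 of H1, 14 of H2A, 14 of H2B, 9 of H3, 11 of H4 and H3f3b. RefSeq lists 72 genes with such symbols, and the other 15, of which 10 lie on chromosome 3, are not analysed here. The rule uses symbols and no measured value.

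The histone genes were read in single long-term haematopoietic stem cells of mice older than 20 months. All mice were double heterozygous for SCL-tTA and H2B-GFP, so both groups carry the reporter, a histone H2B fused to green fluorescent protein whose transactivator is driven by SCL. The cells were sorted from lineage-depleted marrow as LSK (lineage negative, Sca-1 and Kit positive), CD34-/low, Flk2-, CD48- and CD150+, then split by GFP into label-retaining (GFP positive) and non-label-retaining (GFP negative) cells, which sets aged stem cells that kept the label against those that lost it. Both groups spent a night at 3% oxygen with no growth factor before polyadenylated RNA was amplified with SMART-Seq v4. There were 37 label-retaining cells (9, 9, 10 and 9 in repeats 1 to 4) and 28 non-label-retaining cells (8, 4, 6 and 10). The number of mice behind each biological repeat is not given in the sources used here.

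As background, core histones H2A, H2B, H3 and H4 form the protein spool of the nucleosome, and linker histone H1 binds where DNA enters and leaves it. Most of their genes are replication-dependent: they lie in clusters, have no introns, are transcribed in S phase, and their mRNAs end in a conserved stem-loop instead of a poly(A) tail. Replacement genes such as H3f3b are expressed throughout the cell cycle and make polyadenylated mRNA. Some replication-dependent genes also give polyadenylated transcripts, above all in cells that no longer divide. In reporter mice of this type H2B-GFP is incorporated into chromatin, and after its production is switched off each division dilutes it.

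Of the 57 genes, 54 lie on mouse chromosome 13 (GRCm38.p6, the mm10 build of the data). There 23 lie between 21715711 and 22043658, 29 between 23531044 and 23764412, and 2, H2bc1 and H2ac1, between 23933725 and 23934913. H1f8 and H1f10 lie on chromosome 6, and H3f3b spans 116021961 to 116026039 on chromosome 11. Each gene has 1 value per cell, with coding and untranslated parts together.

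The stem-loop is shown because it separates the replication-dependent genes from H3f3b. It was searched on the transcript strand of GENCODE M21 models as GG, 4 further bases, TT, 6 further bases and CC, with the first 6 bases pairing with the last 6. The forms found are written 5′ to 3′ with the loop of 4 bases in capitals.
Form in 20 genes (3 of H1, 7 of H2A, 7 of H2B, 3 of H3): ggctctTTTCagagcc
Form in 6 genes (1 of H1, 2 of H2B, 3 of H3): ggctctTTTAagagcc
Form in 6 genes (all H4): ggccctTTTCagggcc
Form in 2 genes (both H4): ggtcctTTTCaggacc
Form in 1 gene (H4): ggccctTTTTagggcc
In all, 35 of the 57 genes (61.4%) had a match, against 0.334% of all 55450 genes of that annotation. Every H4 match used a stem other than that of H1, H2A, H2B and H3. The models of 44 of the 57 run past the coding part, and all 35 matches were among these 44. H3f3b had no match, nor did the model of H2bc4. H2ac14 had no transcript to search.

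Where the model ends after the stem-loop differed between genes that are prominent below. It ended 23, 29 and 46 bases after the stem-loop in H2bc3, H2bc7 and H2bc14. By contrast it ran on for 840 bases in H1f2, 1153 in H1f4 and 2010 in H2ac6. No reads along the transcripts were available, so which end the counted RNA had was not measured.

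The H2B genes are near copies, which limits what a count per gene can say. The first 120 coding bases of 4 H2B genes are printed to show how few positions can assign a read. Capitals mark the 18 positions at which the 4 genes are not all alike.
H2bc7: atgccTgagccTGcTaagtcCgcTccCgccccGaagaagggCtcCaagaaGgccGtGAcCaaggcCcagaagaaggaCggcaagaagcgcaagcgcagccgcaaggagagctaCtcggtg
H2bc3: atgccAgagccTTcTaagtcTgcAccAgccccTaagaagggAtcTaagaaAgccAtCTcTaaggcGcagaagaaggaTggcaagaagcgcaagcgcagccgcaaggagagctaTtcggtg
H2bc14: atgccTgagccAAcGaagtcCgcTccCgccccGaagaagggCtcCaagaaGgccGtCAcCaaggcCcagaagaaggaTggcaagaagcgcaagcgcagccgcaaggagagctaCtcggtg
H2bc4: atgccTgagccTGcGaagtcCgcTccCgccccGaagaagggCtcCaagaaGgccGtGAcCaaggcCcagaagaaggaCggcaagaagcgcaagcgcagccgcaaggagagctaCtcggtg
Over the whole coding sequence of 381 bases, H2bc7 differed from H2bc4 at 6 positions, from H2bc14 at 11 and from H2bc3 at 20. Of all 50-base windows of the coding sequence, 97.6% in H2bc4, 80.4% in H2bc7, 55.7% in H2bc14 and 55.4% in H2bc3 also occurred in another gene. In H2ac23 and H2ac24 it was 100% of the windows, but only 21.9% in H1f2.

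The deposited values of these genes are mostly fractional, as arises where reads are shared out among the genes they match. Among values above 0, 66.4% were whole (within 0.001) over all genes, and 25.2% among the histone genes other than H3f3b. All values above 0 of H2bc13, H2bc15, H2ac13, H2ac22 and H4c12 were fractional, and those of H2A, H2B, H3 and H4 genes are uncertain between near copies. H2bc6 overlaps Gm33387, and H2bc1 and H2ac1 overlap Gm33516, and the kit does not mark strand. The table has no separate entry for the reporter, so H2B reads of the transgene cannot be told apart from those of H2B genes.

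Counts of at least part of a read were present for 49 of the 57 genes in at least 1 of the 65 cells. The 8 with none were the oocyte linker histone H1f8, the testis linker histone H1f6, H2ac1, H2ac4, H2ac7, H3c1, H3c2 and the pseudogene H2ac14. With 0 of 65 cells, up to 5.52% could carry a count (exact 95% Clopper-Pearson limit, counting error only, taking cells as independent). A further 20 genes were seen in 1 to 9 cells: H1f1, H1f5, H1f10, H2ac11, H2ac12, H2bc11, H2bc12, H3c3, H3c6, H3c7, H3c8, H3c10, H3c11, H4c1, H4c2, H4c3, H4c4, H4c6, H4c17 and H4c18. Their sums over all 65 cells ran from 1.17 counts (H1f5, 3 cells) to 2462 (H4c4, 9 cells). The remaining 29 genes had a count in 10 or more cells, and 18 of them also had a mean of at least 10 counts per cell, the filter for the test of levels.

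H2B was the largest class per kilobase of exon in 7 of the 8 repeat-and-group sums. It held 70.8, 74.0, 46.2 and 53.6% of the length-scaled histone counts in label-retaining repeats 1 to 4, and 50.9, 78.0, 7.14 and 58.1% in the others. The exception was non-label-retaining repeat 3, where H4 held 38.8%. Averaged over the 8 sums, H2B held 54.8% ± 22.5 (SD), H3f3b 17.7%, H1 10.9%, H2A 9.76%, H4 6.28% and H3 0.547%. Pooled over all cells and without the length correction, where the deepest cell weighs most, H3f3b alone held 41.4%, H2B 40.1% and H1 15.7%. The classes also differed in how many genes were seen: 12 of 14 H2B genes and 8 of 14 H2A genes reached 10 cells, against 4 of 11 for H4 and 1 of 9 for H3 (H3c4).

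**Figure D1:**
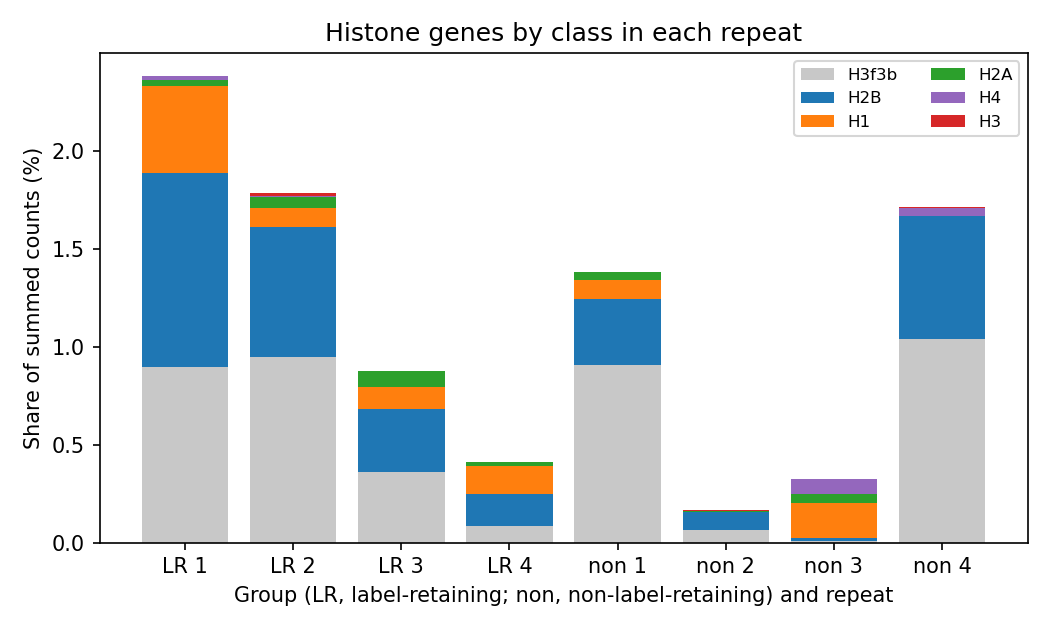
Stacked bars give the share of summed counts (percent) held by each histone class in each of the 8 repeat-and-group sums (LR, label-retaining; non, non-label-retaining), with no error bar since each bar is 1 sum. H3f3b and H2B make up most of 7 bars, non-label-retaining repeat 3 is led by H1, and the total runs from 0.164% to 2.38%.

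The histone share of all counts varied about as much within a group as between groups. In label-retaining repeats 1 to 4 the 57 genes held 2.38, 1.78, 0.876 and 0.411% of the summed counts. In the non-label-retaining repeats they held 1.38, 0.164, 0.323 and 1.71%. These ranges overlapped, with means of 1.36% ± 0.886 and 0.895% ± 0.767 (SD, n = 4 each). For H2B the share was 0.990, 0.663, 0.322 and 0.162% against 0.336, 0.0910, 0.0148 and 0.625%, again with overlap. In bulk sums like these, fewer cells with a transcript and less RNA per cell cannot be told apart, so detection per cell is given next.

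In 4 of 4 repeats the mean number of histone genes detected per cell was higher for label-retaining cells, and in 3 of 4 without the 4 cells under 10000 counts or with at least 1 full count required. The mean number per cell was 26.1, 20.4, 17.5 and 8.78 in label-retaining repeats 1 to 4 (18.2 ± 7.23, SD, n = 4) and 11.6, 9.00, 11.5 and 7.80 in the others (9.98 ± 1.89). Single cells showed 2 to 37 of the genes (median 18) in the first group and 1 to 25 (median 11) in the second. The difference in means was 8.23 genes, and it was smallest in repeat 4, at 0.978. In that repeat the other settings gave 8.78 against 9.00 and 6.67 against 6.70. Over all genes the same cells differed likewise, with 1924 ± 446 against 1090 ± 277 genes per cell, a ratio of 1.76.

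Sequencing depth moved with the group in part of the repeats. A label-retaining cell had a median of 264894 counts in total (27954 to 20516069). The others had a median of 118056 (86 to 661078), and 4 of them had under 10000. In repeats 3 and 4, however, the median was higher in the non-label-retaining cells (271753 against 201268, and 201757 against 164961). Values were then rounded to whole numbers, which drops small fractions, and every cell was thinned to 10000 counts, the shallower 4 left out. After this the means were 7.58 ± 3.304 and 4.42 ± 1.14 histone genes. The difference of 3.17 was then positive in 3 of 4 repeats, with repeat 4 at 3.56 against 4.50.

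By class, a label-retaining cell showed on average 8.18 H2B genes and a non-label-retaining cell 6.01, while for H2A it was 4.70 against 1.31. For H1 the means were 2.12 and 0.850, for H4 1.73 and 0.581, and for H3 0.550 and 0.263. H3f3b went the other way, with a count in 34 of the 37 label-retaining cells and in 27 of the 28 others. Whether the classes differ in their group difference was not tested.

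**Figure D2:**
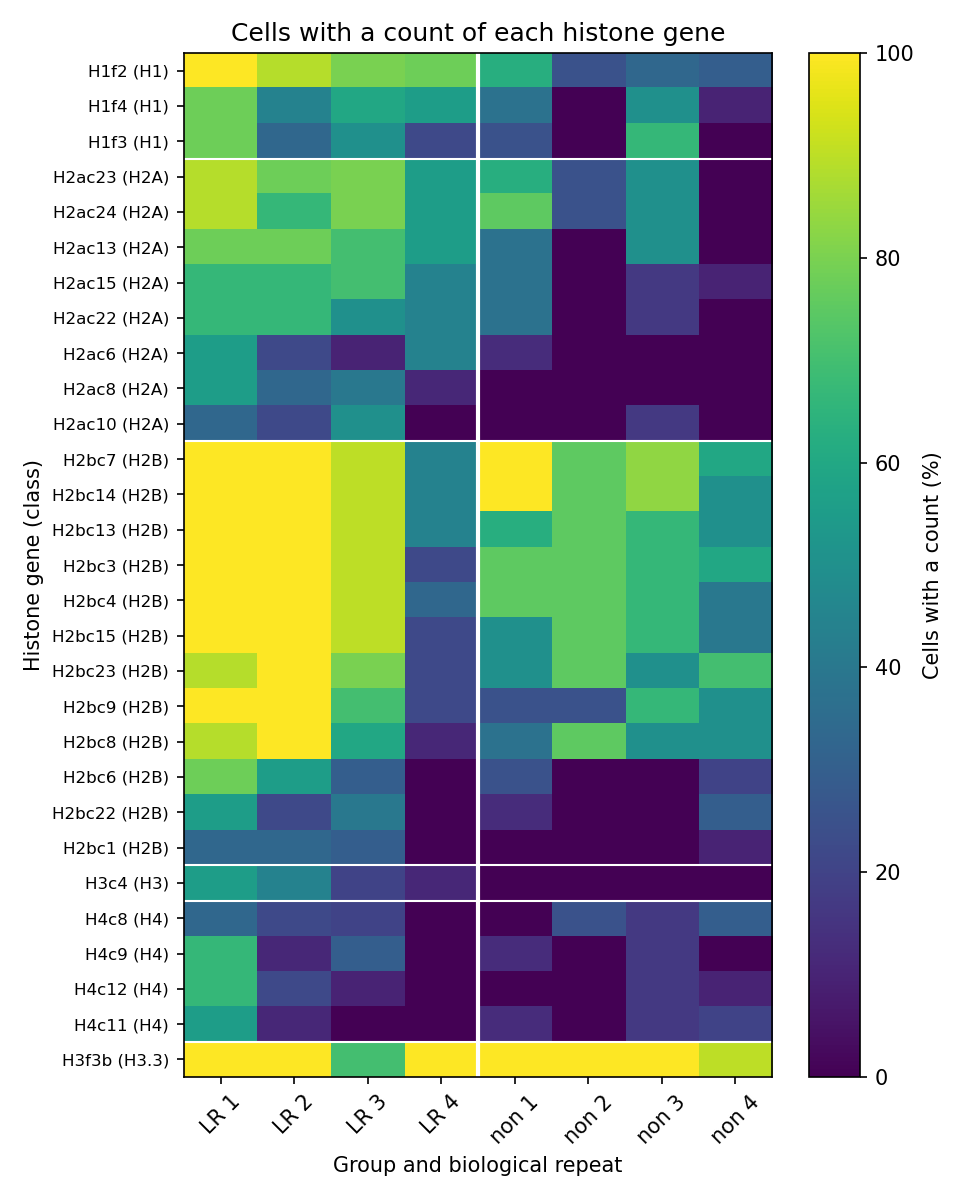
Each tile gives the percent of cells with a count of one of the 29 histone genes seen in 10 or more cells (rows, by class) in each repeat (columns; LR, label-retaining, 9 or 10 cells each; non, non-label-retaining, 4 to 10 cells each). H3f3b is at 70% or more throughout, and most H2B genes are frequent in both groups except in label-retaining repeat 4. H2bc6, H2bc22 and H2bc1 are at 30% or less in every non-label-retaining column. H2A genes are bright mainly in the label-retaining columns.

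Gene by gene, 28 of the 29 genes had a larger mean share of cells in the label-retaining repeats, beside 93.5% of all 3489 genes seen in 10 or more cells. The groups did not overlap for 6 of the 29, all higher in label-retaining cells, and the same held for 8.48% of all genes. The 6 were H1f2, H2ac8, H2ac13, H2ac15, H2ac22 and H3c4, each with an exact permutation p of 0.0286 (two-sided, 4 repeats against 4, the smallest possible). H2ac8 and H3c4 reached 10 cells through label-retaining cells alone, so the filter itself favoured their separation and their p is no support. H2ac13 (26 and 6 cells), H2ac15 (23 and 5) and H2ac22 (21 and 4) also passed through the label-retaining group, so their p is no support either. H1f2 (32 and 11) had 10 or more cells in each group. None passed after Benjamini-Hochberg adjustment over the 3489 genes (adjusted p = 0.337 for each, exact permutation), nor did any other gene, while 296 had an unadjusted p of 0.0286. With the repeats paired the p was 0.125, the smallest that exact sign flips of 4 pairs can give. After thinning to 10000 counts 0 of the 29 stood apart (2.64% of all genes did), and 19 of 29 had the larger mean share in label-retaining cells (72.1% of all genes). Without the 4 shallow cells alone, 6 of 29 stood apart, beside 5.42% of all genes.

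H1f2 (NCBI gene 50708), which encodes a somatic linker histone, was the gene of the 6 with the highest counts (chromosome 13, 23738807 to 23739531). It was detected in 100, 88.9, 80 and 77.8% of label-retaining cells by repeat, and in 62.5, 25, 33.3 and 30% of the others. Every label-retaining repeat lay above every non-label-retaining one, with a difference of 49.0 percentage points. Its thinned shares were 100, 44.4, 70 and 33.3% against 57.1, 0, 33.3 and 12.5%, higher in 4 of 4 repeats but overlapping between groups (exact permutation p = 0.143). The other somatic linker genes overlapped between groups: H1f4 was detected in 77.8, 44.4, 60 and 55.6% against 37.5, 0, 50 and 10%, and H1f3 in 77.8, 33.3, 50 and 22.2% against 25, 0, 66.7 and 0%.

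Of the H2A genes whose groups did not overlap, 3 had few counts. H2ac13 was seen in 77.8, 77.8, 70 and 55.6% of label-retaining cells and in 37.5, 0, 50 and 0% of the others. H2ac15 stood at 66.7, 66.7, 70 and 44.4% against 37.5, 0, 16.7 and 10%, and H2ac22 at 66.7, 66.7, 50 and 44.4% against 37.5, 0, 16.7 and 0%. All counts of the 65 cells summed to 331, 140 and 88.1 for these 3 genes. Of their values above 0, 100, 96.4 and 100% were fractional. After thinning the 3 genes were left in 3, 2 and 2 cells.

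H2ac8 (NCBI gene 319166, chromosome 13, 23570663 to 23571220) and the H3 gene H3c4 had counts in label-retaining cells and in none of the 28 others. Among genes seen in 10 or more cells, 53 of 3489 (1.52%) did so, and 0 were in the other group alone. Of the 49 histone genes with any count 13 were seen in label-retaining cells alone (26.5%), beside 24.1% of all 6826 genes with any count. H2ac8 was counted in 13 of 37 label-retaining cells, 55.6, 33.3, 40 and 11.1% by repeat, and H3c4 in 12 of 37, 55.6, 44.4, 20 and 11.1%. A count of 0 in 28 cells leaves up to 12.3% of cells with a count (exact 95% limit), taking the cells as independent, although they come from 4 repeats and 4 of them had under 10000 counts. H2ac8 reached 44.1, 22.0, 54.7 and 16.7 CPM (counts per 1000000 of the summed counts) in label-retaining repeats 1 to 4. Set against a floor of 3 counts over the non-label-retaining group, its mean level was 55.7-fold the floor. That of H3c4, with 60.6 counts in all, was 2.05-fold the floor. These ratios leave out the spread between repeats and are not lower limits. A single cell held 60.1% of all counts of H2ac8, and after thinning H2ac8 was left in 4 label-retaining cells.

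H2ac6 was close to this pattern, with 12 label-retaining cells and 1 non-label-retaining cell. Its level was 17.4, 421, 3.27 and 27.4 CPM in label-retaining repeats and 3.88, 0, 0 and 0 CPM in the others. A single cell, of label-retaining repeat 2, held 88.4% of all its counts. The pair H2ac23 and H2ac24, whose coding windows are all shared, was detected in 28 and 27 label-retaining and in 9 and 10 non-label-retaining cells. H2ac23 was counted in 88.9, 77.8, 80 and 55.6% against 62.5, 25, 50 and 0% of the cells of repeats 1 to 4, and H2ac24 in 88.9, 66.7, 80 and 55.6% against 75, 25, 50 and 0%. H2ac6 was counted in 55.6, 22.2, 10 and 44.4% against 12.5, 0, 0 and 0% and H2ac10 in 33.3, 22.2, 50 and 0% against 0, 0, 16.7 and 0%. All 4 overlapped between groups.

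The H2B genes were common in both groups. H2bc7 (NCBI gene 319180, chromosome 13, 23573760 to 23574207) was detected in 100, 100, 90 and 44.4% of label-retaining cells and in 100, 75, 83.3 and 60% of the others. The groups overlapped, with a difference of 4.03 percentage points (adjusted exact permutation p = 0.900), and without repeat 2 it was -2.96. H2bc14 and H2bc3 gave 6.53 and 8.89 points. Label-retaining repeat 4 was the lowest of the 8 for each of these 3 genes. H2bc13, H2bc4, H2bc15 and H2bc9 gave larger mean differences, from 16.7 to 31.4 points, without separating the groups.

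The remaining H2B genes are given by the share of cells with a count in label-retaining repeats 1 to 4 against the non-label-retaining repeats. H2bc14 was counted in 100, 100, 90 and 44.4% against 100, 75, 83.3 and 50%, H2bc3 in 100, 100, 90 and 22.2% against 75, 75, 66.7 and 60% and H2bc4 in 100, 100, 90 and 33.3% against 75, 75, 66.7 and 40%. H2bc13 was counted in 100, 100, 90 and 44.4% against 62.5, 75, 66.7 and 50%, H2bc15 in 100, 100, 90 and 22.2% against 50, 75, 66.7 and 40%, H2bc9 in 100, 100, 70 and 22.2% against 25, 25, 66.7 and 50% and H2bc8 in 88.9, 100, 60 and 11.1% against 37.5, 75, 50 and 50%. For each of these genes label-retaining repeats 1 and 2 were at 88.9% or more and label-retaining repeat 4 was the lowest of the 8 values. H2bc23 was counted in 88.9, 100, 80 and 22.2% against 50, 75, 50 and 70%, with the same low repeat. The scarcer H2bc6 was counted in 77.8, 55.6, 30 and 0% against 25, 0, 0 and 20%, H2bc22 in 55.6, 22.2, 40 and 0% against 12.5, 0, 0 and 30% and H2bc1, a testis-type H2B, in 33.3, 33.3, 30 and 0% against 0, 0, 0 and 10%. These 3 were absent from label-retaining repeat 4, and the groups overlapped for all 11 genes.

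In level, H2bc7, H2bc3 and H2bc14 followed one pattern across the repeats. H2bc7 stood at 2570, 2466, 90.5 and 129 CPM in label-retaining repeats 1 to 4 and at 651, 155, 52.2 and 234 CPM in the others. H2bc3 stood at 1805, 1689, 51.6 and 68.8 CPM against 461, 80.3, 41.5 and 142 CPM. For H2bc14 it was 1606, 1540, 49.8 and 81.7 CPM against 287, 132, 34.9 and 160 CPM. All 3 were high in label-retaining repeats 1 and 2 and low in label-retaining repeats 3 and 4, which lay among the non-label-retaining values.

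**Figure D3:**
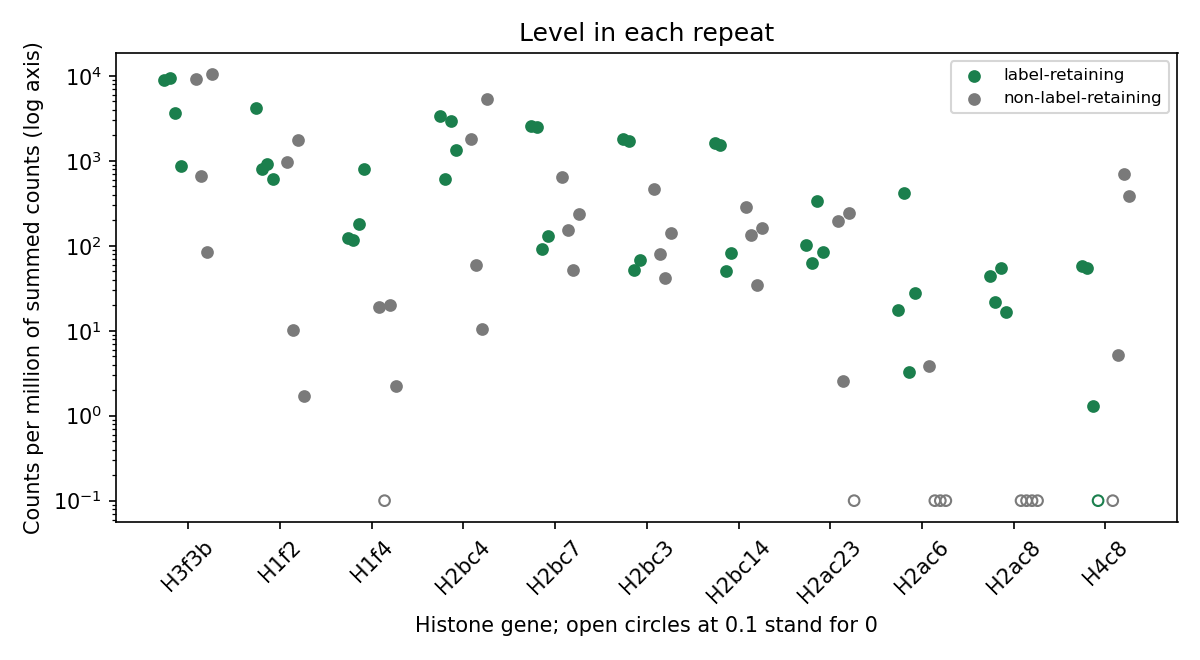
Points give the level of 11 histone genes in each repeat in CPM (log axis; green, label-retaining; grey, non-label-retaining; n = 4 repeats each; open circles at 0.1 stand for 0). The values of most genes overlap between groups and spread over more than a factor of 10. Those of H1f4 do not overlap, and H2ac8 is above 0 only in label-retaining repeats.

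The proportion of H2bc7 to H2bc3 was nearly constant from cell to cell, and the proportions to H2bc14 varied more. In the 20 cells with at least 100 counts of the pair, H2bc7 made up a median of 59.4% of H2bc7 plus H2bc3, with an interquartile range of 58.5 to 60.2% and extremes of 54.0 and 66.2%. For H2bc7 with H2bc14 the median was 61.9% (interquartile range 60.2 to 64.5%, extremes 53.5 and 70.3%, 20 cells). H2bc3 made up a median of 52.6% of H2bc3 plus H2bc14 (interquartile range 48.7 to 57.2%, extremes 37.4 and 62.7%, 20 cells). H2ac23 likewise made up 49.8% of H2ac23 plus H2ac24 (49.1 to 51.0%, 15 cells). The median of the first pair was close in both groups: H2bc7 was at 59.4% of it in 16 label-retaining cells and 60.9% in 4 non-label-retaining cells. Whether shared reads or reads of the transgene gave these proportions was not tested.

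H2bc4, which differs from H2bc7 at fewer coding bases than H2bc3 does, did not keep a fixed proportion to it. H2bc7 made up 64.6% of the pair by the median of 29 cells, with an interquartile range of 8.56 to 85.5% and extremes of 0 and 93.3%. H2bc4 (NCBI gene 68024, chromosome 13, 23684199 to 23692480) stood at 3367, 615, 2928 and 1320 CPM in label-retaining repeats and at 1791, 59.0, 10.4 and 5400 CPM in the others. A single label-retaining cell of repeat 3 reached 72214 CPM of H2bc4 and 1 non-label-retaining cell of repeat 4 reached 49540 CPM. The median over cells was 303 CPM in the 37 label-retaining and 24.9 CPM in the 28 non-label-retaining cells.

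**Figure D4:**
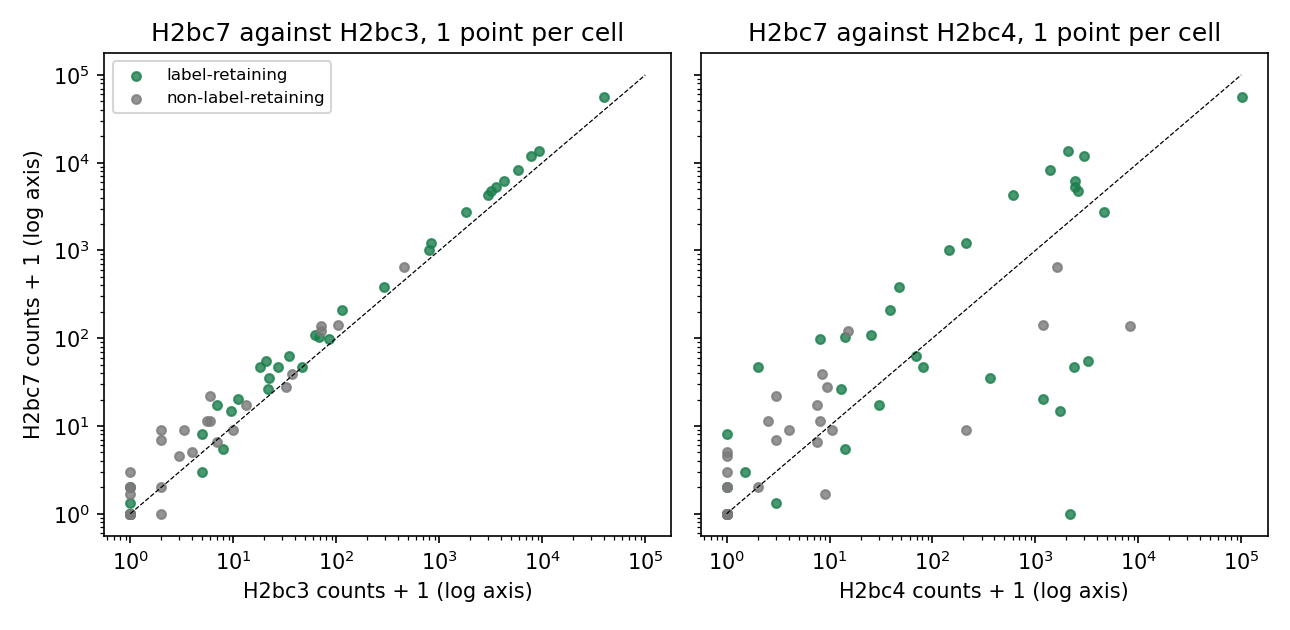
Each point is 1 of the 65 cells (green, label-retaining; grey, non-label-retaining), with estimated counts plus 1 of H2bc7 against H2bc3 (left) and against H2bc4 (right) on log axes, and a dashed line of equal counts. The left points follow a narrow band just above the line, at a median H2bc7 share of 59.4%, and the right points scatter widely.

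Promoter sequence of H2bc7, H2bc3 and H2bc14, and of H1f2, which did not follow them, is shown to compare their start-site elements. The 150 bases before each annotated start come from RefSeq (GRCm38.p6), on the gene's strand. Capitals mark the octamer ATTTGCAT (or ATGCAAAT), the TATA element TATAAA on the gene strand, and CCAAT (or ATTGG).
H2bc7, chr13:23574208-23574357, minus strand: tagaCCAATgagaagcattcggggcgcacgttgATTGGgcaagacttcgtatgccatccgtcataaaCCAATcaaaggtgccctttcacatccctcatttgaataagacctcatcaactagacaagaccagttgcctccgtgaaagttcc
H2bc3, chr13:23746584-23746733, plus strand: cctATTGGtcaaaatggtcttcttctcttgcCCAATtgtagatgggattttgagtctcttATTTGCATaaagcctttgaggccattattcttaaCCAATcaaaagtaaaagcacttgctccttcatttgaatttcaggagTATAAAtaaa
H2bc14, chr13:21721894-21722043, plus strand: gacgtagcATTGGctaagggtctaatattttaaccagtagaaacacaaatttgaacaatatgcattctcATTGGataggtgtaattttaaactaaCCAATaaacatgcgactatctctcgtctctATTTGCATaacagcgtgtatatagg
H1f2, chr13:23738657-23738806, plus strand: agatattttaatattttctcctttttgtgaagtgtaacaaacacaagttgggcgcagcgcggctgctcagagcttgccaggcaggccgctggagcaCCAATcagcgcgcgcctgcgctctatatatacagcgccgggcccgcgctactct
The 3 H2B stretches held 3 CCAAT matches each and that of H1f2 held 1. The octamer was in those of H2bc3 and H2bc14. Over the 250 bases before the start, 12 of the 53 histone genes with an entry (22.6%) held the octamer, against 1.60% of 32851 promoters. Of the 12, 6 were H2B genes. TATAAA was in 41.5% against 7.59%, and CCAAT in 83.0% against 33.8%, including all 13 H2A and all 13 H2B genes with an entry but 3 of 11 H4 genes. These matches are letters in a window, and no binding was measured.

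H3f3b (NCBI gene 15081) was the histone gene found in most cells, 61 of 65. Its level was 8950, 9491, 3613 and 862 CPM in label-retaining repeats 1 to 4 and 9064, 661, 83.5 and 10398 CPM in the others, so the groups overlapped fully. Its detection differed by -5.00 percentage points (exact permutation p = 1.00), which became 3.33 without repeat 3 and 14.7 after thinning. Among linker genes, H1f2 stood at 4197, 809, 909 and 605 CPM against 965, 10.3, 1762 and 1.70 CPM. H1f4, another somatic linker histone, stood at 124, 116, 180 and 797 CPM against 19.1, 0, 20.2 and 2.27 CPM, without overlap. It passed the filter through label-retaining cells (22 and 7 cells), so this separation is no support. The share of all genes with such levels was not counted. The deepest cell held 60.8% of the counts of label-retaining repeat 1, and without it that repeat stood at 941 CPM for H2bc4, 302 for H1f4, 112 for H2ac8, 43.9 for H2ac6 and 146 for H4c8, which is described next.

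H4 transcripts were rare. H4c8 (NCBI gene 69386, chromosome 13, 23531044 to 23531478) was found in 7 label-retaining and 5 non-label-retaining cells, and H4c9 in 10 and 2. H4c8 stood at 58.0, 54.6, 1.31 and 0 CPM against 0, 5.13, 693 and 383 CPM, and 1 cell of non-label-retaining repeat 3 held 1296 counts. H4c8 was counted in 33.3, 22.2, 20 and 0% against 0, 25, 16.7 and 30% of cells, H4c9 in 66.7, 11.1, 30 and 0% against 12.5, 0, 16.7 and 0%, H4c11 in 55.6, 11.1, 0 and 0% against 12.5, 0, 16.7 and 20% and H4c12 in 66.7, 22.2, 10 and 0% against 0, 0, 16.7 and 10%. All 4 H4 genes were absent from label-retaining repeat 4, and all 4 overlapped between groups.

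Levels were compared with edgeR's quasi-likelihood test on counts summed per repeat and group, over 2786 genes with Benjamini-Hochberg adjustment. It called 0 of the 2786 genes at an adjusted p under 0.05 (at an unadjusted p under 0.05, 180 were higher and 122 lower), and so 0 of the 18 histone genes tested. DESeq2 called 14 genes (0.503%), none of them a histone gene (smallest adjusted p among these 0.102). At an unadjusted p under 0.05 in edgeR 2 of the 18 were higher in label-retaining cells (H2ac8 and H2ac6, beside 6.46% of all genes) and 1 was lower (H4c8, beside 4.38%). H2ac8 (13 and 0 cells) and H2ac6 (12 and 1) passed the filter through label-retaining cells, the group where they are high, so their p is no support. The log2 fold changes were 6.39 ± 2.89 (SE) for H2ac6 (edgeR adjusted p = 0.421) and -6.02 ± 2.73 for H4c8 (edgeR adjusted p = 0.422). H2ac6 was at 3.52 without label-retaining repeat 2 and at 12.9 without non-label-retaining repeat 1, which held its 1 non-label-retaining cell. H4c8 was at -3.23 with total counts.

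In the same test, on the log2 scale, H2bc7 stood at 0.73 ± 2.23, H2bc4 at -2.34 ± 2.36, H1f2 at -0.88 ± 2.27, H3f3b at -1.99 ± 2.28 and H1f4 at 3.14 ± 2.18, with edgeR adjusted p from 0.531 to 0.854. Of the 18, 8 had a fold change above 0, beside 65.5% of all genes. Scaling by total counts gave 16 of 18 (76.5% of all genes) and the repeat as a block 15 of 18 (74.8%). The median of all genes was itself 1.15 with TMM factors, 1.78 with total counts and 1.91 with the block, while that of the 18 was -0.47, 1.56 and 0.82.

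Some of these directions changed when libraries were left out. Without non-label-retaining repeat 4, H3f3b became 0.09 and H2bc4 1.22, without non-label-retaining repeat 3 H1f2 became 1.58, and without repeat 2 of both groups H2bc7 became -0.21. H1f4 kept its sign, at 1.53 without label-retaining repeat 4 and 4.87 without non-label-retaining repeat 3. With total counts H3f3b, H2bc4 and H1f2 were at 0.20, 0.21 and 1.27, and with the repeat as a block at 0.84, 1.62 and 3.14, none of them called. On simulated counts with the spread of these sums (dispersion 3.42) the test called 0% of genes changed 64-fold, so 0 calls do not show that the groups are alike.

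The genes that make and package histones were looked at in the same cells. Of 10 analysed genes for transcribing histone genes and cutting the ends of their mRNAs, 8 were seen in 10 or more cells, and 7 of these 8 had the larger mean share in label-retaining cells (93.5% of all genes did). Sympk, the scaffold of the cleavage complex, was found in 33 and 19 cells, and Lsm11, a part of the U7 snRNP that recognises histone pre-mRNA, in 17 and 5. The groups overlapped for all 8. The genes for the cleavage subunits Cpsf2 and Cpsf3 were each seen in 14 label-retaining and 3 non-label-retaining cells.

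Histone chaperones carry new or evicted histones to and from DNA. Of the 12 seen in 10 or more cells, 11 had the larger mean share in label-retaining cells, beside 93.5% of all genes. The groups did not overlap for 1 of the 12, beside 8.48% of all genes. This was Nap1l1 (32 and 15 cells), a carrier of H2A and H2B (exact permutation p = 0.0286, adjusted over all genes 0.337 at the least). The H3 and H4 chaperones Asf1a and Chaf1a were seen in 12 and 4 and in 12 and 6 cells. Npm1, abundant in the nucleolus, was seen in 35 and 22.

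Of the other histone variants, all 7 that were seen in 10 or more cells had the larger mean share in label-retaining cells, beside 93.5% of all genes. The groups overlapped for each of them. H3f3a, the second gene for H3.3, was found in 33 and 20 cells, at 2182, 1177, 2119 and 1383 CPM in label-retaining repeats and 1850, 178, 3.75 and 10.8 CPM in the others. H2az2, one of the genes for H2A.Z, was found in 24 and 9 cells.

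S phase genes were sparse in both groups. Of 17 analysed, 6 reached 10 cells, all 6 with the larger mean share in label-retaining cells (93.5% of all genes) and all with overlapping groups. Mcm6, of the replicative helicase, was found in 15 and 10 cells and Mcm3 in 14 and 3, while Cdc6, E2f8, Prim1, Rrm2 and Tk1 were at 0 in all 65 cells. Of 8 G2 and M phase genes 2 reached 10 cells, Birc5 in 17 and 11 and Cks2 in 11 and 1, with Ccnb1 and Plk1 at 0. Of the 6 genes of the quiescence list that reached 10 cells 5 had the larger mean share in label-retaining cells (93.5% of all genes did). That list also holds D cyclins, which act in cell cycle entry, and Ccnd2 (24 and 19 cells) and Ccnd3 (25 and 17) are among the 6. The groups did not overlap for 1, Btg1 (30 and 11), beside 8.48% of all genes.

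The cells carried stem cell transcripts. Most also carried globin transcripts, which mark erythroid cells, and some carried markers of other cell types. Of 11 genes analysed from the stem cell identity list 5 were seen in 10 or more cells, among them Hlf (43 cells) and Gata2 (34 cells). Hoxa9 was seen in 5 cells, and Fgd5 and Hoxb5 in 2 each. Cd48 and Flt3, which encodes Flk2, were at 0, and the sort selected against both proteins. Slamf1, which encodes CD150, a marker the sort selected for, was also at 0. Of 5 erythroid markers all had a count, and their summed share of counts ran from 0.00389 to 7.40% over label-retaining and from 0.239 to 2.39% over non-label-retaining repeats. Neutrophil (3 of 6 with a count), monocyte (3 of 6), T and NK cell (2 of 5), megakaryocyte (2 of 6), endothelial (3 of 3) and stromal markers (3 of 5) stayed at or below 0.0362% of the counts of any repeat, with Elane, Ltf, Mpo, Adgre1, Ccr2, Csf1r, Cd4, Gzma, Nkg7, Gp1ba, Gp6, Gp9, Treml1, Col1a1 and Cxcl12 at 0. B cell markers (4 of 7, Ebf1, Ighm and Vpreb3 at 0) reached 0.668% in label-retaining repeat 2 and at most 0.00564% in a non-label-retaining repeat. Col1a2, of the stromal list, was seen in 29 of the 65 cells. The part of cells of other types in the histone values was not tested.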

How the data were processed

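RNA-seq of 65 single cells was used, each deposited as 1 column of a gene table. Per the submitters' processing notes the build was mm10 and DESeq was used. Which aligner, counter and annotation were used is not given in the sources used here. Values deposited by the authors are estimated counts: totals per cell differ widely, so no scaling is visible, although the table is described as normalized. Identifiers were matched to RefSeq symbols (16216 of 18036 matched, and the 1820 others held 0.13% of counts). Members and gene lists were chosen with earlier results of these data known.

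Cells are not replicates, so each comparison set 4 repeats against 4. A gene was detected in a cell when its value was above 0, and its shares of cells were compared by exact permutation. Counts were summed per repeat and group, rounded, and tested with edgeR 4.0.16 (R 4.3.3, TMM, robust quasi-likelihood fit, Benjamini-Hochberg threshold 0.05) for genes with a mean of at least 10 per cell over the 8 sums and a count in at least 10 cells. DESeq2 1.42.0 was an alternative. Non-label-retaining repeat 3 had a TMM factor of 0.290 and repeat 4 one of 0.223, and the remaining sums had 1.44 to 2.04. CPM are relative to the total of a sum. Whether repeats came from separate mice is not stated, so p-values measure the spread between these repeats.

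Same-numbered repeats of the 2 groups deviated together (correlations 0.550, 0.295, 0.166 and 0.155, each the best match of its number), a hint from the data that they are pairs. The main tests were unpaired, and the numbers were taken as pairs only in the sign flips and the repeat block. Every member with a count is named, and those in 10 or more cells are given with their values by repeat. On simulated counts of 2786 genes with a dispersion of 0.1 the test called 100% of 4-fold changes and 6 of 2586 unchanged genes. Alternatives were other scalings, no filter, the repeat block, thinning to 10000 counts, other detection limits and leaving out repeats. Leaving out the deepest cell was added after seeing the data.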

Additional observations from a re-analysis of the deposited data

Results flagged for a closer look

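Each value here stood far from the other 3 repeats of its group, by the gap to its nearest neighbour relative to the range. Chance gives such a value in about 1 of 20 groups of continuous values, and 12 were found among 80. That rate does not hold for shares of few cells: in 5 of the 12 the other 3 repeats were tied at 0 or 100%, where 1 differing repeat is always picked out. In label-retaining repeat 4 H2bc15 and H2bc3 were each detected in 22.2% of cells and H2bc4 in 33.3%, against 90 to 100% in the other 3 repeats. H2ac15 was detected there in 44.4% (others 66.7 to 70%) and H2bc1 in 0% (others 30 to 33.3%). H3f3b was detected in 70% of cells of label-retaining repeat 3 and in 90% of non-label-retaining repeat 4, against 100% elsewhere in each group. Among non-label-retaining repeats, H2bc1 was detected in 10% of cells of repeat 4, H2ac10 in 16.7% of repeat 3 and H2ac6 in 12.5% of repeat 1, each 1 cell, and in 0% of the other repeats.

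By share of summed counts, H1 genes held 0.447% in label-retaining repeat 1 (0.0928 to 0.140% in the others). H3 genes held 0.0134% in label-retaining repeat 2 (2.98e-05 to 8.44e-05% in the others).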

How the results depend on the processing

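The count of called genes was 0 in every edgeR setting tried, the replicate block included, and 14 with DESeq2. The mean difference in histone genes per cell stayed positive, at 7.11 without shallow cells and 7.90 at 1 or more counts (3 of 4 repeats each), 6.00 at 10 or more (4 of 4), and 6.14 to 10.6 without a repeat. Fold changes (log2) changed sign with total counts in H3f3b (0.20), H2bc4 (0.21) and H1f2 (1.27), and with the paired repeat block in the same genes (0.84, 1.62 and 3.14). That of H1f2 also did with no filter (0.97) and with each cell scaled to the same total (0.88). Leaving out repeats gave -2.80 to 0.41 for H3f3b, -0.21 to 1.42 for H2bc7, -2.85 to 1.24 for H2bc4 and -1.96 to 1.67 for H1f2. The cause was not tested.

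Differences in detection, in percentage points, changed sign after thinning for H3f3b (14.7), H4c11 (-1.39), H4c12 (-4.51), H2ac15 (-0.79), H2bc22 (-4.20), H2bc23 (-13.4), H4c8 (-4.86) and H2bc6 (-0.97). They did so at 10 or more counts for H3f3b (17.1) and H4c11 (-1.11), at 1 or more for H4c11 (-0.83), and without shallow cells for H2bc14 (-2.85) and H2bc7 (-5.97). Leaving out a repeat gave -10.0 to 3.33 for H3f3b, -8.52 to 12.5 for H4c11, -9.81 to 11.3 for H4c8, -1.30 to 28.8 for H2bc8 and -2.96 to 10.6 for H2bc7. The paired block changed no call. Low depth, and the rounding before thinning, limit genes with few or fractional counts: after thinning H3c4 was left in 0 cells. The parts of depth and rounding in this were not told apart.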
